A study of Bos taurus with 4 samples.

Results

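The probes described here are oligonucleotides of a bovine microarray that gave a strong signal in both RNA fractions of the oocyte but carry no gene symbol in the platform annotation. A probe was taken when it had no symbol and its mean spot brightness exceeded the mean plus 2 SD of the 153 negative-control spots in both channels on all 4 arrays. Of 43794 bovine probes, 22004 had no symbol, and 941 of these (4.28%) met the rule. The same brightness rule took 1089 of the 21790 probes with a symbol (5.00%), and these served for comparison. The members were thus chosen by their measured brightness in each fraction, so the brightness of the members is a description and not a result. The rule did not use the ratio of the fractions, but a probe near background in one fraction cannot enter, so the most one-sided probes fall outside it.

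The arrays compared an A150 fraction, RNA with poly(A) tails labelled as 150 residues or more, with an A- fraction, RNA with tails labelled as 50 residues or fewer. Both fractions came from the same pool of 200 denuded Holstein oocytes at the germinal vesicle stage, taken from chilled slaughterhouse ovaries, and each of the 4 arrays held 1 pool. RNA that stayed off the poly(A)-binding beads or came off in the washes formed A-, and RNA eluted at 75 °C after a 42 °C elution formed A150. The A150 RNA carried Cy5 on arrays 1 and 2, and the dyes were exchanged on arrays 3 and 4. Each value is from a pool, so fewer oocytes holding a transcript and less of it per oocyte cannot be told apart. A fraction also holds only what was recovered and amplified, so each ratio compares relative signals.

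A fully grown oocyte at the germinal vesicle stage is close to transcriptional silence and lives on stored mRNA. Shortening of the poly(A) tail keeps many stored messages dormant, and lengthening of the tail during maturation is linked with their translation. Sequence elements in the 3′ untranslated region direct this control, so transcripts of the same gene with different 3′ ends can carry different tails. A probe without a symbol can lie in such a 3′ end, in an unannotated gene, in a noncoding or repeated RNA or in a gene named since the array was designed. The sequences of the probes were not used here, and which of these applies to a given member was not determined. Members are therefore called by probe ID, with no gene name, position or function.

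Of the oocyte marker genes on the array, 12 of 13 had a probe that entered the test, above the negative-control level on 3 or more arrays in A150, A- or both. BMP15, ZP2 and FIGLA, an oocyte growth factor, a zona pellucida protein and an oocyte transcription factor, had probes that passed the brightness rule. Of 14 cumulus and granulosa cell markers, 4 had a probe above the level, and only STAR, a cholesterol transport protein, passed the brightness rule. All 3 blood markers on the array had a probe above the level and none passed the brightness rule. Over all bovine probes, 19453 of 43794 entered the test and 2030 passed the brightness rule, counted by probe and not by gene. The part of other cells in the results was not tested.

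The brightness rule was set mainly by array 2, where the negative controls were brightest and most variable. In its A150 channel the controls had an SD of 449 units, against 23 to 215 in the other 7 channels. The A150 channel of that array had a level of 2467 intensity units, and 4362 bovine probes exceeded it, against 9633 to 26549 probes in the other 7 channels. A further 1042 probes without a symbol passed in the other 7 channels and missed only there. Among the members, the signal came closest to the level in the array 2 A- channel for 362 and in the array 2 A150 channel for 291. At that closest point 261 members were under 1.1 times the level, the median member was at 1.27 times and the highest at 13.7 times.

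A first set of 3 members lay just inside the rule, at 1.001 times the level. EMBV3_10609 had log2 ratios of A150 over A- of 1.37, 0.95, 0.14 and 1.15 on arrays 1 to 4. EMBV3_27028 had -0.50, -0.88, -2.40 and -0.94. EMBV3_38282 had 0.47, 1.23, -0.87 and -1.07, so its sign followed the dye, above 0 with A150 in Cy5 and below 0 in Cy3. Just outside, at 0.999 times the level, lay EMBV3_01699, EMBV3_18420 and EMBV3_43550. EMBV3_01699 was bright in A- on all arrays, with signals of 41066, 41708, 40364 and 36765, and missed the rule only in A150 on array 3, at 1078 units. Its ratios were -3.01, -3.14, -6.99 and -3.85, with a mean of -4.25 ± 1.87 (SD, n = 4). EMBV3_18420 had a mean ratio of 0.16 ± 2.39 and EMBV3_43550 of -0.51 ± 2.69 (SD, n = 4 arrays). The ratios of EMBV3_18420 were 2.77, 1.32, -2.68 and -0.79, so its sign also followed the dye.

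The bright probes without a symbol lay further toward A- than the bright probes with a symbol on every array. The median log2 ratio of A150 over A- of the members was -0.20, 0.03, -0.39 and -0.17 on arrays 1 to 4, with a mean of -0.18 ± 0.17 (SD, n = 4). The median of the symbol-bearing probes was 0.50, 0.43, -0.04 and 0.38, with a mean of 0.32 ± 0.24 (SD, n = 4). The groups differed in the same direction on all 4 arrays, by -0.70, -0.39, -0.35 and -0.55. The mean difference was -0.50 ± 0.16 (SD, n = 4), a 1.41-fold difference in the A150 over A- ratio. With brightness asked on at least 3 arrays in place of 4 the difference was -0.23. Flipping the signs of the 4 arrays in all 16 ways gave a two-sided exact permutation p of 0.13 (2 of 16), the smallest that 4 arrays allow, so this test cannot reach 0.05. For the median of the members against 0, the same exact sign-flip test gave p = 0.25, with 3 of 4 arrays below 0. The place of 0 depends on the scaling: the members' median was 0.38 with median centring in place of loess and 0.041 with no normalization within arrays. The difference between the groups was -0.50 in both. Median centring shifts all ratios of an array alike, so for the difference these 2 settings are 1 result.

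The raw signals of the groups were as follows, as a description, since the rule chose probes on them. The median A150 signal of the members was 4882, 5212, 4714 and 5964 intensity units on arrays 1 to 4, against 6377, 5183, 5715 and 7740 for the symbol-bearing probes. The median A- signal of the members was 4685, 5032, 4744 and 5328, against 3702, 4010, 3937 and 4667. The members' median was the higher in A- on all 4 arrays and the lower in A150 on 3 of 4, array 2 being the exception. Their overall level was close to that of the symbol-bearing probes, with a median log2 signal over both fractions of 12.1 against 12.0.

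The difference was larger toward the A- end of the distribution, and the difference between the ends was not tested. The 10th percentile of the members' ratios was -2.59 ± 0.42 against -1.74 ± 0.40, a difference of -0.86 ± 0.13 (SD, n = 4 arrays). At the 25th percentile the difference was -0.60 ± 0.11, at the 75th -0.51 ± 0.13 and at the 90th -0.30 ± 0.14. All of these differences were below 0 on 4 of 4 arrays, each with an exact sign-flip p of 0.13. The members' ratios therefore spread out more at the A- end, while the A150 ends of the groups lay closer together.

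A mean ratio above 0 was found for 401 members (42.6%) against 648 symbol-bearing probes (59.5%), and with median centring these shares were 63.8% against 78.0%. A mean ratio below -1, more than 2-fold higher in A-, was found for 232 members (24.7%) against 131 symbol-bearing probes (12.0%), with 17.9% of all 2030 bright probes beyond this size. A mean ratio above 1 was found for 166 members (17.6%) against 299 symbol-bearing probes (27.5%), and for 22.9% of all bright probes. Beyond 4-fold toward A- lay 106 members (11.3%) against 23 symbol-bearing probes (2.11%), with a background of 6.35%. Beyond 4-fold toward A150 lay 33 members (3.51%) against 37 symbol-bearing probes (3.40%), with a background of 3.45%, so at this end the shares were close to each other and to the background. With median centring the counts were 64 (6.80%) against 6 (0.551%) toward A- and 115 (12.2%) against 180 (16.5%) toward A150. The larger share of members in the A- tail was thus found under both scalings, and the close shares at the A150 end were not.

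With loess, more members had the same sign on all arrays on the A- side than on the A150 side, and this order turned round with median centring (113 against 252) and with no normalization (180 against 201). The ratio was below 0 on all 4 arrays for 233 members (24.8%) against 108 symbol-bearing probes (9.92%), and for 16.8% of all bright probes. It was above 0 on all 4 arrays for 156 members (16.6%) against 241 symbol-bearing probes (22.1%), and for 19.6% of all bright probes. The sign followed the dye rather than the fraction for 54 members (5.74%) with Cy5 the brighter and 23 (2.44%) with Cy3, against 59 (5.42%) and 34 (3.12%) of the symbol-bearing probes, so these shares were close. Across members the ratios of any 2 arrays correlated at r = 0.44 to 0.63, against 0.17 to 0.42 across the symbol-bearing probes. These correlations run over probes that share arrays and are a description only.

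The 106 members beyond 4-fold toward A- were below 0 on all 4 arrays in 104 cases. Their median ratio was -2.83, -2.72, -3.86 and -2.54 on arrays 1 to 4. Array 3 gave the lowest of the 4 ratios for 58 of them. Their median signal was 4317, 4717, 2890 and 4458 units in A150 against 31863, 28495, 32981 and 31244 in A-. The 33 members beyond 4-fold toward A150 had median signals of 18308, 12777, 14008 and 16278 in A150 against 2330, 3366, 2399 and 3625 in A-, and 30 of them were above 0 on all 4 arrays.

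Signals crowded at the top of the scale, and whether ratios of probes in that range are too small in size was not tested. No channel held a bovine probe above 47221 units, and the highest A150 signals on arrays 3 and 4 were 36919 and 35734. A signal above 30000 units in at least 1 channel was found for 200 members (21.3%) against 111 symbol-bearing probes (10.2%). A- exceeded 30000 on all 4 arrays for 44 members against 6 symbol-bearing probes, and A150 did so for 16 against 6. Of the 106 members beyond 4-fold toward A-, 77 had an A- signal above 30000 on at least 1 array. Of the 23 symbol-bearing probes beyond 4-fold toward A-, 6 did. The shares of the A- tail without such probes were not counted. With every probe above 30000 left out, an alternative chosen after seeing the data, 741 members and 978 symbol-bearing probes remained and the median difference was -0.41 ± 0.16 (SD, n = 4), again below 0 with an exact sign-flip p of 0.13.

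The members lay further toward A- than the symbol-bearing probes at every level of brightness. The far A- tail of the members sat mostly in the brightest quartile. All bright probes were parted into quartiles of their mean log2 signal. From the dimmest to the brightest, the members' own median ratio averaged -0.18, 0.05, -0.04 and -0.44 over the arrays. That of the symbol-bearing probes averaged 0.13, 0.40, 0.66 and 0.03. The median difference, members minus symbol-bearing probes, was -0.31 ± 0.17 in the dimmest quartile, -0.36 ± 0.20 in the next, -0.71 ± 0.18 in the one after and -0.47 ± 0.14 in the brightest (SD, n = 4 arrays), each below 0 on 4 of 4 arrays. Members beyond 4-fold toward A- numbered 0, 15, 22 and 69 from the dimmest to the brightest quartile, against 1, 6, 8 and 8 symbol-bearing probes. The rule asks for A150 above the level on every array, so a probe far toward A- needs an A- signal well above it. This raises its mean log2 signal, so the rule itself disfavours the dimmest quartile for the A- tail, and likewise for the A150 tail. By the same quartiles, members beyond 4-fold toward A150 numbered 1, 9, 15 and 8, against 6, 8, 16 and 7 symbol-bearing probes. The part of the rule in these counts was not tested. The symbol-bearing probes met the same rule. The quartiles held 237, 232, 198 and 274 members against 271, 275, 309 and 234 symbol-bearing probes.

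Each probe's ratio was tested against 0 with limma over 19453 probes that exceeded the negative-control level on 3 or more arrays, in A150, A- or both. At a Benjamini-Hochberg adjusted p under 0.05, 3 members passed on the A- side and 0 on the A150 side. Over all tested probes these shares were 0.0617% in A- and 0% in A150. Of the symbol-bearing bright probes, 1 passed on the A- side and 0 on the A150 side. At an unadjusted p under 0.05, 188 members were higher in A- (19.98%) and 146 higher in A150 (15.5%), against 76 (6.98%) and 232 (21.3%) of the symbol-bearing bright probes. Over all 19453 probes the unadjusted shares were 5.45% in A- and 8.03% in A150. With any one array left out, no member was called in this test on either side.

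More members passed when the fit and the adjustment ran over the 2030 bright probes alone. In this limma fit 109 members (11.6%) were called higher in A- against 19 symbol-bearing probes (1.74%), with 6.31% of all bright probes called. On the other side 45 members (4.78%) were called higher in A150 against 71 symbol-bearing probes (6.52%), with 5.71% of all bright probes called. From the dimmest to the brightest quartile, 2, 14, 20 and 73 members were called higher in A-, against 2, 3, 5 and 9 symbol-bearing probes. The rule disfavours the dimmest quartile for probes far toward A-, so this order is a description. The count of calls rested on single arrays: members called higher in A- numbered 0 without array 1, 77 without array 2, 57 without array 3 and 6 without array 4. In A150 it was 0 without array 1, 15 without array 2, 30 without array 3 and 0 without array 4. Of the 106 members beyond 4-fold toward A-, 96 were among the 109 called.

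The 3 members called over all probes were EMBV3_26663, EMBV3_18869 and EMBV3_29369. EMBV3_26663 had A150 signals of 2575, 3017, 3873 and 2291 units against A- signals of 37727, 36147, 38088 and 35630 on arrays 1 to 4. Its ratios of -4.25, -4.47, -4.02 and -4.27 were the most even of the 12 members with the smallest p on the A- side. The mean was -4.25 ± 0.19 (SD, n = 4), 19.1-fold higher in A- (limma adjusted p = 0.0482). EMBV3_18869 had A150 signals of 2129, 2958, 4691 and 2356 units against A- signals of 35120, 36085, 33674 and 33845. Its ratios were -4.42, -4.53, -3.51 and -4.15, with a mean of -4.15 ± 0.46 (SD, n = 4), 17.8-fold higher in A- (limma adjusted p = 0.0482). In both probes the fractions did not overlap, and every A- signal was above 30000 units, so these folds may be too small.

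EMBV3_29369 was dimmer than these. Its A150 signals were 1323, 2816, 4114 and 1668 units against A- signals of 11423, 13585, 33242 and 10506. Both fractions were highest on array 3, and the ratio still varied little, at -3.40, -3.19, -3.72 and -3.14. The mean was -3.36 ± 0.26 (SD, n = 4), 10.3-fold higher in A- (limma adjusted p = 0.0486). The symbol-bearing probe called was that of SATB1, a chromatin organiser, at -4.43 ± 0.39 (SD, n = 4).

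A further 9 members completed the 12 with the smallest p on the A- side and did not pass over all probes (limma adjusted p 0.0555 to 0.0572). EMBV3_25494 had A150 signals of 2856, 3698, 3434 and 3497 units against A- signals of 38666, 27758, 17045 and 31260 on arrays 1 to 4, so its A150 level was even while A- varied. Its mean ratio was -3.56 ± 0.45 (SD, n = 4). EMBV3_07283 had A150 signals of 5854, 4610, 3326 and 4386 units against A- signals of 37964, 33341, 34841 and 35374, with a mean ratio of -3.48 ± 0.49. EMBV3_14269 was among the dimmer ones, with A150 signals of 1287, 2548, 4604 and 2228 units against 14574, 15229, 23250 and 10609 in A-, and a mean ratio of -3.27 ± 0.54. In all 3 the lowest A- signal exceeded the highest A150 signal.

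EMBV3_35024 had the lowest mean of these 9, at -4.00 ± 0.89, with its ratios between -5.03 on array 3 and -2.87 on array 4. EMBV3_43506 followed at -3.73 ± 0.84 and had the reverse order, with -2.71 on array 3 and -4.74 on array 4. The opposite order shows that array 3 was not lower for all members of the tail. EMBV3_24921 had a mean of -3.32 ± 0.40, EMBV3_42621 of -3.02 ± 0.51, EMBV3_01680 of -2.96 ± 0.55 and EMBV3_00619 of -2.87 ± 0.53 (SD, n = 4). Without background correction EMBV3_24921 had -3.65, -1.81, -2.49 and -3.28 on arrays 1 to 4. Its mean was then -2.81 ± 0.82 (SD, n = 4). In the fit over bright probes alone all 12 were called, with limma adjusted p from 0.00531 to 0.0115.

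On the A150 side the 12 members with the smallest p had mean ratios from 1.52 to 2.73, and none was called over all probes (limma adjusted p 0.0555 to 0.0921). In the fit over bright probes alone 11 of them were called, and EMBV3_29563 was not (limma adjusted p = 0.0523). EMBV3_14289 had A150 signals of 10121, 11262, 14008 and 12351 units against A- signals of 1858, 3410, 2275 and 1870. Its ratios were 2.86, 2.21, 2.59 and 2.65, with a mean of 2.57 ± 0.27 (SD, n = 4), 5.96-fold higher in A150. The fractions did not overlap, and neither came near the top of the scale.

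EMBV3_37476 had A150 signals of 19225, 14985, 11180 and 16278 units against A- signals of 4441, 3312, 1937 and 2023, with a mean ratio of 2.58 ± 0.41 (SD, n = 4). EMBV3_33521 was the brightest in A150 of these 12, with 34279, 34766, 33411 and 32699 units against 6552, 6285, 7637 and 5314 in A-. Its mean ratio was 2.28 ± 0.39, and its A150 signals all lay where signals crowd. EMBV3_29563 had the smallest SD of the 12, at 1.52 ± 0.18, with ratios of 1.78, 1.42, 1.41 and 1.48.

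Of the others, EMBV3_20156 averaged 2.70 ± 0.63 and was pulled up by array 4, at 3.64 against 2.32 to 2.43 on the other arrays. EMBV3_41353 averaged 2.25 ± 0.46, EMBV3_17099 2.16 ± 0.52, EMBV3_17180 2.09 ± 0.35, EMBV3_10883 1.95 ± 0.36 and EMBV3_11865 1.62 ± 0.26 (SD, n = 4). EMBV3_22387 averaged 2.73 ± 0.80 and EMBV3_10823 2.30 ± 0.73, both lowest on array 3, at 1.56 and 1.29. The symbol-bearing bright probes with the smallest p on this side were of similar size. They were those of PCNA, a DNA replication clamp, at 2.81 ± 0.50, ROMO1, a mitochondrial membrane protein, at 2.57 ± 0.53, and MYL6, a myosin light chain, at 2.48 ± 0.32.

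The 3 members with the lowest means had wider spreads over the arrays than any of the 12 with the smallest p on the A- side. The lowest was EMBV3_18824, with A150 signals of 496, 3539, 1376 and 776 units against A- signals of 25450, 25236, 5760 and 27156. Its ratios were -6.22, -3.58, -3.22 and -5.96, with a mean of -4.74 ± 1.56 (SD, n = 4). EMBV3_30635 had the same split, at -6.38, -3.03, -3.01 and -6.07, with a mean of -4.62 ± 1.85. Both were far lower on arrays 1 and 4 than on arrays 2 and 3. The A150 level of the brightness rule was 330 and 484 units on arrays 1 and 4, and 2467 and 1079 on arrays 2 and 3. The part of that level in the split was not tested. EMBV3_32081 was at -5.59, -5.76 and -5.75 on arrays 1 to 3 and at -1.003 on array 4. Its A150 signals were 894, 9348, 1336 and 10348 units against A- signals of 31963, 34228, 26206 and 19455, so A150 was high on arrays 2 and 4. Without background correction its ratios were -5.30, -1.97, -4.53 and -0.99, so the value on array 2 rests on the correction. Of the 941 members, 55 moved by more than 1 on the log2 scale on some array when the correction was left out. Of these, 2 moved by more than 2.

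The highest was EMBV3_19887, with A150 signals of 16332, 34864, 9248 and 18155 units against A- signals of 1550, 2927, 1711 and 5483. Its ratios were 3.99, 4.51, 2.64 and 1.64, with a mean of 3.20 ± 1.30 (SD, n = 4). EMBV3_22387, at 2.73 ± 0.80, was next, and EMBV3_18061 had 4.48, 2.82, 1.85 and 1.72, with a mean of 2.72 ± 1.27. EMBV3_19887 and EMBV3_18061 were higher on the arrays with A150 in Cy5 than on those with A150 in Cy3, by a mean of 4.25 against 2.14 for EMBV3_19887 and 3.65 against 1.79 for EMBV3_18061. Their direction was the same in both orientations.

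The brightest members gave ratios near 0. EMBV3_17682 had A150 signals of 36907, 39512, 32960 and 35436 units against A- signals of 34204, 37166, 37582 and 37382, with a mean ratio of -0.24 ± 0.24 (SD, n = 4). EMBV3_27749 averaged -0.33 ± 0.20, EMBV3_05261 -0.36 ± 0.23, EMBV3_27035 -0.10 ± 0.31, EMBV3_06052 0.08 ± 0.34 and EMBV3_35346 0.21 ± 0.60. Most of their signals in both fractions lay in the range where the array's signals crowd, so a ratio near 0 in these probes gives no measure of how unlike the fractions were. EMBV3_35346 was the exception on array 1, with 35759 units in A150 against 13435 in A- and a ratio of 1.07.

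Ratios near 0 were also found at lower signals. EMBV3_11601 had A150 signals of 22338, 32388, 24647 and 18438 units against A- signals of 13052, 24217, 21213 and 25118, with a mean ratio of 0.01 ± 0.41 (SD, n = 4). EMBV3_10236 had A150 signals of 4931, 5779, 5196 and 8327 against A- signals of 4156, 6735, 4436 and 5336, with a mean of -0.02 ± 0.43. EMBV3_41543 lay close to the level of the rule and averaged 0.00 ± 0.24. In each of these 3 probes the sign of the ratio changed between arrays. In EMBV3_11601 it followed the dye, with a mean of 0.34 with A150 in Cy5 against -0.32 with A150 in Cy3.

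Some members had nearly the same signals as each other and are called near copies here. Among bright probes above the median level, groups of at least 5 probes were sought whose log2 signals agreed within 0.7 in all 8 channels. The search was chosen after seeing the data and has no test. It gave 12 groups holding 64 members and 10 symbol-bearing probes. Of these, 7 groups held only members, 49 in all, 5 held both kinds and 0 held symbol-bearing probes alone. At a wider limit of 1 there were 26 groups with 107 members, of which 8 held only members and 4 only symbol-bearing probes, so the absence of the last kind depends on the limit. As a measure of spot noise, copies of a control sequence printed 10 times (29 sequences, 1305 pairs of spots, all dim) fell within 0.7 for 94.2% of pairs. Pairs of bright probes with the same gene symbol did so in 11 of 67 cases (16.4%), for example both probes of EIF4E, a cap-binding protein, whose widest gap was 0.21.

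Any 2 members above the median level agreed within 0.7 in 611 of 111156 pairs (0.550%), against 348 of 147153 pairs (0.236%) of symbol-bearing probes. Of these members 41.5% had a signal above 30000 units in at least 1 channel, against 19.3% of the symbol-bearing probes. Signals crowd there, so unlike probes can agree within 0.7, and the part of this in the shares was not tested. The probes of a group can share a target, a transcript family or a sequence, or lie where signals crowd, which was not determined here. Members of a group are therefore not counted here as separate transcripts, and whether they are was not determined. The probes of a group lay apart on the array. In the largest group they ran from array row 1 to row 160 and from probe number 5969 to 38480.

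Of the 7 groups of members alone, 3 were far on the A- side on every array. In the first, EMBV3_00619, EMBV3_02781, EMBV3_05158, EMBV3_40214 and EMBV3_42621 had mean signals of 4728, 4245, 11463 and 3835 units in A150 against 30696, 25228, 32148 and 31427 in A-. Their mean ratio was -3.08, -3.23, -1.99 and -3.25 on arrays 1 to 4, or -2.89 ± 0.60 (SD, n = 4 arrays), 7.39-fold higher in A-. Array 3 stood above the other arrays through a higher A150 signal, and it did so in all 5 probes.

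In the second, EMBV3_06060, EMBV3_07981, EMBV3_08677, EMBV3_09709, EMBV3_14532 and EMBV3_36037 had mean signals of 15284, 8442, 2891 and 6693 units in A150 against 32155, 30159, 35722 and 33280 in A-. Their mean ratio was -1.46, -2.25, -4.49 and -2.43, or -2.66 ± 1.29 (SD, n = 4 arrays). In the third, EMBV3_29397, EMBV3_31877, EMBV3_34318, EMBV3_41116 and EMBV3_41614 had 14644, 8189, 3441 and 10666 units in A150 against 29983, 31027, 36248 and 35006 in A-. Their mean ratio was -1.42, -2.34, -4.17 and -1.77, or -2.42 ± 1.22. In both groups the ratio and the A150 signal were lowest on array 3, while A- lay near or above 30000 units on every array, where signals crowd.

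All 16 probes of these 3 groups were called higher in A- in the limma fit over bright probes alone (adjusted p 0.0112 to 0.0322) and 0 over all probes. They were 16 of the 109 members called there, and 16 of the 106 members beyond 4-fold toward A-. Outside all groups, 90 of 877 members (10.3%) were beyond 4-fold toward A-, against 23 of 1079 symbol-bearing probes (2.13%). With all such near copies, of any number, counted once, 74 of 715 units of members (10.3%) were, against 21 of 862 units of symbol-bearing probes (2.44%). The share of the A- tail was thus about as large without these near copies. Of pairs of bright probes above the median level with the same gene symbol, only 11 of 67 (16.4%) met the limit for near copies. Probes of the same target can thus remain counted apart, and the part of repeated targets in the tail was not tested.

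The other 4 groups of members alone showed how far single arrays could part. The largest, with 11 probes, had a mean ratio of -0.14, 2.23, 0.19 and 0.84 on arrays 1 to 4. Its mean signals were 13396, 33969, 16330 and 19197 units in A150 against 12062, 7482, 10578 and 10235 in A-. On array 2 the A150 signal was high in all 11 probes, whose ratios lay between 1.94 and 2.49 there. The probes differed among themselves by an SD of at most 0.20 in any channel, while the mean ratio of the group had an SD of 1.05 over the arrays. The search for groups bounds the first of these values and not the second.

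The next group, of 9 probes, had 2.52, 0.62, 0.60 and 2.68, or 1.60 ± 1.15 (SD, n = 4 arrays). It parted arrays 1 and 4 from arrays 2 and 3, mainly through A-, at 4994 and 4139 units against 21516 and 16678. A150 was high throughout, at 31547, 37140, 32783 and 27595. Its ratio was above 0 on every array for all 9 probes, and none was called even over bright probes alone (limma adjusted p 0.0695 or higher). A group of 7 probes had 1.14, 0.10, -0.17 and -0.23, and a group of 6 had 0.75, -0.13, -0.39 and 0.07. In these 4 groups the arrays differed by more than the probes of a group did on any one array. The search kept probes of a group within 0.7 in each channel and set no bound between arrays. It thus favours this order, which is a description only. The pool, its amplification and its hybridisation change together from array to array and cannot be told apart.

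The 5 mixed groups had mean ratios between -0.54 and -0.05. Their symbol-bearing probes were those of CALM and LOC100297240, of CWC25, of TM9SF2 and ZFAND1, of HELB and UBE2D3P, and of BMP15, LOC539166 and TPM3. The mean log2 signal of these groups ran from 14.6 to 15.1, near the top of the scale. Probes annotated to different genes thus fell into 1 group, and the members grouped with them therefore take no gene name from them.

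The members were spread over the whole array. Parted by probe number into 15 blocks, the series held 51 to 78 members in each. The 4 equal bands of array rows from top to bottom held 271, 218, 196 and 256 members, with median mean ratios of -0.26, -0.17, -0.07 and -0.21. Of the members, 16 pairs had adjacent probe numbers, and their ratios were not alike (r = -0.14, a description).

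Dimmer probes without a symbol had smaller shares in both tails than the members. Of 8480 that were tested but missed the brightness rule, the median ratio was -0.02 ± 0.14 (SD, n = 4 arrays). Beyond 4-fold toward A- lay 296 (3.49%) and toward A150 114 (1.34%). Of 8943 symbol-bearing probes that were tested but missed the rule, the median ratio was 0.05 ± 0.13 (SD, n = 4 arrays). Beyond 4-fold toward A- lay 214 of these (2.39%) and toward A150 230 (2.57%). The shares toward A- were thus closer to each other than among the bright probes. The mean ratios of the dimmer probes without a symbol ran from -6.07 to 3.40, against -4.74 to 3.20 for the members. Their median log2 signal over both fractions was 9.22, against 12.1 for the members. The shares of the dimmer probes are therefore not on the same footing as those of the members.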

How the data were processed

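Each of the 4 arrays measured both RNA fractions of 1 pool of oocytes, amplified and dye-labelled per the labels' protocols; the series design text calls the pools separate, so a p-value reflects pool and array spread at once. Per the file headers, the deposited intensity values are unsubtracted Cy3 and Cy5 brightness per spot (mean and median) beside a local background. Scanner, saturation level and image software are not named in those sources. The authors' deposited table holds log2 ratios; its columns correlated at 0.996 to 0.999 with the ratios computed here on uncorrected signals (slopes 1.03, 1.22, 1.09 and 0.84; column medians -0.011, -0.010, 0.020 and 0.012). Its log2 values thus have A150 on top and are centred near 0, and what set the slopes is unknown; it served as an alternative.

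Spots without a probe ID (22 per file) were left out. Spot means were corrected with normexp (offset 50) and loess-normalized within arrays, with control spots at weight 0, in limma 3.58.1 under R 4.3.3, and the sign of arrays 3 and 4 was turned. Ratios were tested against 0 with lmFit and eBayes and Benjamini-Hochberg adjustment at 0.05 over 19453 probes, and the fit was tested on simulated data. Medians over probes were taken per array and compared by exact sign-flip tests over arrays. Pairing by pool is built into each ratio. Precision is limited by having 4 arrays.

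Symbols came from the platform annotation, which gave no accession or gene ID. Members are named by these rules: those called, the 12 with the smallest p and 1 sign on each side, the 3 highest and 3 lowest means, the 6 brightest, the 3 nearest 0 with a small SD and 3 on each side of the brightness level, plus the groups of near copies. The members, lists and rules were chosen with earlier results of these data known.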

Additional observations from a re-analysis of the deposited data

Results flagged for a closer look

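Of 58 sets of 4 array values, 4 held a value that stood apart from the other 3 by Dixon's criterion for 4 values, where chance gives about 1 in 20. For EMBV3_20156 it was array 4, with a log2 ratio of A150 over A- of 3.64. EMBV3_32081 stood apart on array 4 with -1.003. Without background correction array 4 no longer stood apart in either probe, and for EMBV3_32081 array 2 was then at -1.97 and array 4 at -0.99. EMBV3_43550, just outside the brightness rule, stood apart on array 4 with 3.47 and was below 0 on the other arrays. In the group of near copies around EMBV3_00619, array 3 stood apart with a mean ratio of -1.99. The causes were not tested.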

How the results depend on the processing

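The median difference, members minus symbol-bearing bright probes, was -0.50 and was below 0 under every alternative run. It moved by more than its spread over arrays to -0.23 when brightness was asked on at least 3 arrays, to -0.31 in the dimmest quartile and to -0.71 in the third. Elsewhere it lay between -0.36 and -0.56, and leaving out 1 array gave -0.43 to -0.55. The median of the members (-0.18) turned to 0.38 with median centring and to 0.041 with no normalization within arrays, so its sign depends on the scaling. The difference was -0.50 under both, which count as 1 alternative for it, since centring shifts all ratios of an array alike. Leaving out 1 array gave medians of the members of -0.25 to -0.11. The cause of the change in sign was not tested.

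Counts of calls depended on the setting. Members higher in A150 numbered 0, but 45 with no normalization within arrays, 45 in the fit over bright probes, 7 without the replicate block (single channels) and 32 over bright probes with a dye term; over bright probes without 1 array they numbered 0, 15, 30 and 0 (arrays 1 to 4 left out in turn). Members higher in A- numbered 3, but 0 with no background correction, median centring, scaling between arrays, the authors' table, a fit over all probes, a dye term, an unmoderated test, an intensity trend or any 1 array left out. They numbered 6 with brightness on at least 3 arrays, 13 from spot medians, 71 with no normalization, 109 over bright probes, 49 without the replicate block and 96 over bright probes with a dye term; over bright probes without 1 array they numbered 0, 77, 57 and 6. Symbol-bearing bright probes called numbered 1, but 0 under the settings that gave 0 for members higher in A-, and 2, 68, 90, 27 and 66 with brightness on at least 3 arrays, no normalization, bright probes, no replicate block and the dye term over bright probes, and 0, 37, 42 and 1 over bright probes without 1 array.

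Of 574 values of 41 named members under these alternatives, 458 stayed the same, 31 lost and 72 gained a call, 13 moved and 0 called values reversed. Only 3 of the 41 were called in the main fit, so a call could be lost only for these. The sign of the ratio was kept for 36 (median centring) to 41 of the 41 members, depending on the setting. Leaving out saturated spots was not run, as no spot mean reached 65000, and naming by accession was not run, as the annotation holds none. Fits on bright probes without 1 array or with a dye term, the count of near copies and leaving out signals above 30000 were chosen after seeing the data.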
